A study of Mus musculus with 24 samples.

Results

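A group of 8 genes of liver transport, the organic anion transporting polypeptides Slco1a1, Slco1a4, Slco1b2 and Slco2b1, the organic anion transporters Slc22a7 and Slc22a30, and the water and glycerol channels Aqp8 and Aqp9, were followed through all 24 liver RNA-seq libraries of the study. The 8 genes were listed by name, with earlier results of these data known. Their shares beside those of all genes used are therefore descriptions. Of the 8 genes, 7 were among the 1999 genes, of 56748, for which read counts of every mouse were used here. Slc22a7 was not among those genes and was followed only through the deposited gene set enrichment tables. Liver RNA of 6 mice per group, 3 males and 3 females, was compared between GHR+/+ (wild-type) mice, GHR-/- (Laron) mice that lack a working growth hormone receptor, and 2 groups of GHR-/- mice injected with an AAV8 vector.

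The AAV-HLP-mGHR vector carried the mouse growth hormone receptor and the AAV-HLP-Luc vector carried luciferase, both under HLP, a synthetic liver-specific promoter, so that receptor was supplied to liver and other tissues still lacked it. Both vectors were given once, at 40000000000 vector genomes per mouse and an age of 4 to 5 weeks, and the livers were taken at 30 to 31 weeks. The uninjected GHR+/+ and GHR-/- mice were 21 weeks old. Mice given either vector therefore shared the receptor deletion, the injection and the age, as GHR+/+ and GHR-/- mice shared their age, whereas age and injection cannot be told apart wherever injected mice are set against uninjected ones. The strain was not given in the sources used here.

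Hepatocytes take up bile acids, steroid conjugates, thyroid hormones, bilirubin and many drugs from the blood through carriers of the Slco and Slc22 families in their sinusoidal membrane. Growth hormone reaches the liver in a pulsatile pattern in male rodents and a more continuous one in females, and Slco1a1 is known as a male-biased and Slco1a4 as a female-biased gene of mouse liver. Aquaporins let water across the membrane, and Aqp9 also lets glycerol into the hepatocyte for glucose synthesis.

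Slco1b2, Slco1a4 and Slco1a1 are neighbours. In GENCODE M39 on GRCm39 they lie in this order between chr6:141575179-141892690, Slco1b2 on the plus strand and the other two on the minus strand, with 117618 bases between Slco1b2 and Slco1a4 and 50970 bases between Slco1a4 and Slco1a1. The remaining genes lie at chr7:99306783-99360547 (Slco2b1, minus strand), chr17:46743044-46749407 (Slc22a7, minus strand), chr19:8312731-8382475 (Slc22a30, minus strand), chr7:123061514-123067227 (Aqp8, plus strand) and chr9:71017928-71075964 (Aqp9, minus strand). All 8 are protein-coding. The 3 neighbours differed from each other in how they varied over the groups, and Slc22a30 and Aqp8 were the members called in the most comparisons between groups, so the 250 bases before the transcription start of these 5 genes are shown, as RefSeq gives them on GRCm38.p6, 5′ to 3′ on the strand of the gene. They are chr6:141946963-141947212 for Slco1a1, chr6:141856221-141856470 for Slco1a4, chr6:141629268-141629517 for Slco1b2, chr19:8405106-8405355 for Slc22a30 and chr7:123462044-123462293 for Aqp8, and capitals mark letters of the form TTCNNNGAA, to which the growth hormone effector STAT5 binds.
Slco1a1: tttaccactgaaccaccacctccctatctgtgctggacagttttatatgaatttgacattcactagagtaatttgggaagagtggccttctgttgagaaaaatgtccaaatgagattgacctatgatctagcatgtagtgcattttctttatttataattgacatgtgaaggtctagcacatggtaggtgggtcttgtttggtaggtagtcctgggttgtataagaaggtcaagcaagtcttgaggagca
Slco1a4: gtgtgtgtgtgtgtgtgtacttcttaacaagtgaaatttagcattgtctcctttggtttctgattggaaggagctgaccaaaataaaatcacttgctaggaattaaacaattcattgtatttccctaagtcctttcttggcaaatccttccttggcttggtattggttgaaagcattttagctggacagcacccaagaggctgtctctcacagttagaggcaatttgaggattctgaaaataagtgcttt
Slco1b2: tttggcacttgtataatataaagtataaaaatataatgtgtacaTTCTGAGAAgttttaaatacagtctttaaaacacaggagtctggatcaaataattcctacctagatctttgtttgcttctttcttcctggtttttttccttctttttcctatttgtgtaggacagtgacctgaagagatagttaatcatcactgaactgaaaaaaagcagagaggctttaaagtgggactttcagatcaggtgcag
Slc22a30: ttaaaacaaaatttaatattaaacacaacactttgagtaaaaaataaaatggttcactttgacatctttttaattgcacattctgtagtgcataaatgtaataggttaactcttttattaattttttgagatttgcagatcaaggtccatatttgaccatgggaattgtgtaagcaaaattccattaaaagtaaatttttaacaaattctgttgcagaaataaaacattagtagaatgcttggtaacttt
Aqp8: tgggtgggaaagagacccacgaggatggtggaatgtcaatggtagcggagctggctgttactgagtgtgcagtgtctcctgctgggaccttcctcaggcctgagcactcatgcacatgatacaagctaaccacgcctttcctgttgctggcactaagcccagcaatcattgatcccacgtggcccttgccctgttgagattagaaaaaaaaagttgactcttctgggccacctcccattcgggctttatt

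Of these 5 stretches, read on both strands, the form TTCNNNGAA stood in that of Slco1b2 and in none of the other 4. A second match stood before 1 of the 3 annotated starts of Slco2b1. The form was found in 7.02% of the 32851 RefSeq promoters of the same length. The letters GTTAAT, part of a site of the hepatocyte factor HNF1, stood in that of Slco1b2 and in 6.43% of all, and TATAAA stood in those of Slco1b2 and Slco1a1 and in 12.4% of all. These matches describe letters and were not tested as binding sites.

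The libraries held 26453904 to 38194053 reads in the genes used. The mapped reads in all were estimated at 31199807 to 47858687. That estimate was worked back from counts, the authors' FPKM and the annotated lengths of 32 genes with 1 transcript. Ghr, the targeted gene, had 18658 to 27548 normalized read counts (reads per gene divided by a size factor of the library) in GHR+/+ mice and 2052 to 2653 in GHR-/- mice, with 2614 to 4966 in AAV-HLP-mGHR and 1416 to 3256 in AAV-HLP-Luc mice. Igf1, a gene induced by growth hormone, ran from 17822 to 27983 in GHR+/+, 5214 to 17068 in AAV-HLP-mGHR, 234 to 1194 in AAV-HLP-Luc and 278 to 2241 in GHR-/- mice. All 9 hepatocyte markers looked for were among the genes used, and none of the 8 cholangiocyte markers was among the genes used. Far more acute-phase RNA than in others of their groups was found in 3 livers, AAV-HLP-Luc male 005, AAV-HLP-mGHR female 024 and GHR+/+ male 101, with sums over 16 acute-phase genes of 5031190, 2842210 and 2937500 normalized counts against group medians of 848418, 1016110 and 1271400. Calls that changed without 1 of them are given with the gene.

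Measured per length, as FPKM (fragments scaled by gene length and by mapped reads), Slco1b2 was the most abundant of the 7 genes in GHR+/+ livers at 220.4 ± 35.6 (SD, n = 6). Aqp9 followed at 115.4 ± 16.2, Aqp8 at 91.3 ± 39.8 and Slco1a1 at 66.4 ± 57.4. These 3 neighbours in the order differed by less than their spread. Slco2b1 at 32.5 ± 5.40 and Slc22a30 at 30.5 ± 7.17 did not differ beyond their spread either, and Slco1a4 was lowest at 16.0 ± 13.6. This order over both sexes held in neither sex alone. In GHR+/+ males Slco1a1 was second at 111.6 ± 38.7 FPKM and Slco1a4 last at 3.98 ± 1.14, whereas in females Slco1a1 was last at 21.2 ± 24.96 and Slco1a4 stood at 28.0 ± 5.62, beside Slc22a30 at 26.4 ± 4.04 (SD, n = 3). In GHR-/- livers Slco1b2 (280.4 ± 50.4 FPKM) and Aqp9 (148.9 ± 23.4 FPKM) again came first, whereas Slco1a1 came last at 0.0150 ± 0.0132. The FPKM of Slc22a30 and Aqp8 were computed here with the full exon length of the annotation. For the other 5 genes that length was 1.00 to 1.60 times the one behind the authors' FPKM, so the places of Slc22a30 and Aqp8 in this order are uncertain.

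Slco1a1, which encodes a sinusoidal carrier of organic anions such as steroid and bile acid conjugates, spanned the widest range. The male GHR+/+ livers had 15062, 24345 and 30249 normalized counts and the female ones 673, 1948 and 9222. The GHR-/- livers had 2.08, 3.02 and 7.49 in males and 0, 1.05 and 4.25 in females, and the AAV-HLP-Luc livers 2.16, 4.66 and 5.79 in males and 1.74, 2.13 and 3.83 in females. With the receptor vector the males had 32.4, 164 and 176 and the females 94.2, 331 and 332. All 6 receptor-treated livers thus stood above all 12 livers that lacked the receptor and below all 6 wild-type livers, with no overlap between these levels. In the female without a read, up to 3 counts would be allowed by a count of 0.

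**Figure D1:**
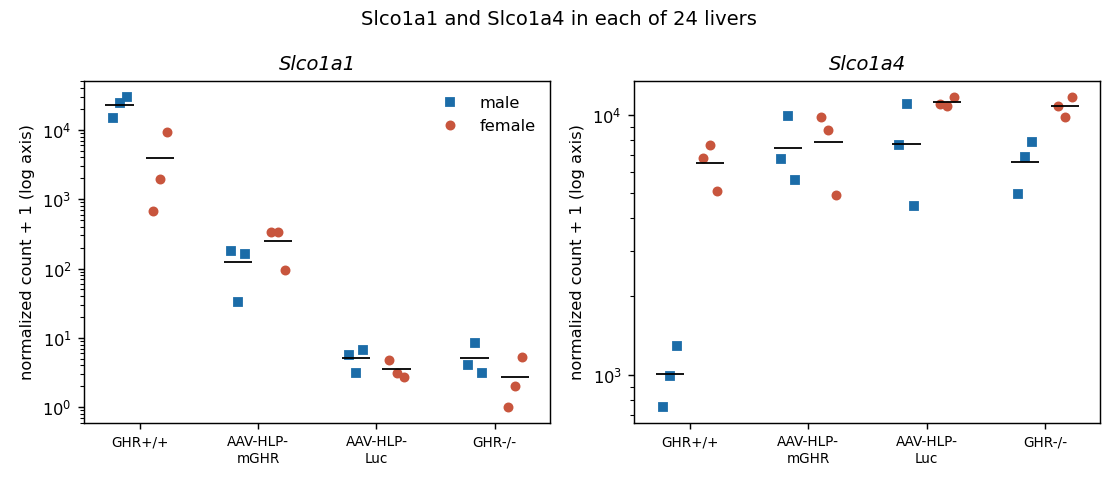
Normalized count + 1 of Slco1a1 (left) and Slco1a4 (right) on log axes in each of 24 livers, by group and sex (squares: males, circles: females, lines: mean of 3 mice, plus 1). Slco1a1 fell from wild type through AAV-HLP-mGHR to the 2 groups without receptor, and Slco1a4 was low in the 3 GHR+/+ males, at 749 to 1285, with no other liver under 4460.

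The size of the Slco1a1 difference was read from summed counts, because the limma-voom fit over both sexes gave it no usable error in the comparisons with GHR+/+ mice. The log2 difference was 11.47 (SE 37.9, adjusted p = 0.853) against GHR-/- and 5.63 (SE 13.8, adjusted p = 0.815) against AAV-HLP-mGHR mice. Slco1a1 was among the abundant genes used through its GHR+/+ level, so a difference from GHR+/+ was partly set by that choice. GHR+/+ mice gave 72428 counts and GHR-/- mice 18, a 4029-fold difference after scaling with a 95% counting interval of 2549 to 6799. AAV-HLP-mGHR mice gave 1249 and AAV-HLP-Luc mice 19, a 59.4-fold difference with an interval of 37.9 to 99.0. GHR+/+ stood 61.9-fold above AAV-HLP-mGHR, with an interval of 58.5 to 65.5. These intervals cover counting error only, not the spread between mice. An exact permutation test over mice, 2-sided, was added after the lack of overlap had been seen, so for these 3 comparisons it could give no other p than its smallest, 0.00216, which is no separate evidence. AAV-HLP-Luc mice had 1.10 times the rate of GHR-/- mice, with a counting interval of 0.544 to 2.21. Under limma-trend, which uses no voom weights, the log2 difference of GHR+/+ against GHR-/- was 11.11 (adjusted p = 2.4e-05).

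Of the 7 genes, 3 passed a limma-voom adjusted p of 0.05 between GHR+/+ and GHR-/- mice, where 24.6% of the 1999 genes did. Slc22a30 and Aqp8 were higher with the receptor, and Aqp9 was lower. The groups did not overlap for 2 of the 7, Slco1a1 and Slc22a30, as for 13.8% of all genes. For Slco1a1 this was partly set by its place among the abundant genes used, which it owed to its GHR+/+ level. The median log2 difference of the 7 genes was 0.30, against 0.01 over all genes tested. In whole liver, fewer cells of a type and less RNA per cell cannot be told apart in any of these differences.

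Slc22a30 is a member of the organic anion transporter family and lies in a cluster of related Slc22a genes on chromosome 19, so reads of near copies may be shared. Its GHR+/+ males had 3945, 5000 and 6014 normalized counts and its GHR+/+ females 3162, 3323 and 3979. The GHR-/- livers ran from 1348 to 1877 with a median of 1699, and the AAV-HLP-Luc livers from 1399 to 2272 with a median of 1724. The AAV-HLP-mGHR livers ran from 2165 to 3092 with a median of 2700.5. Every GHR+/+ liver stood above every AAV-HLP-mGHR liver, and 5 of the 6 receptor-treated livers stood above all livers without receptor. The log2 difference of GHR+/+ over GHR-/- was 1.34 (SE 0.18, limma-voom adjusted p = 0.000554), which held in each fit without 1 mouse. In AAV-HLP-mGHR over AAV-HLP-Luc mice it was 0.57 (SE 0.12, adjusted p = 0.0372), and this call was lost in 9 of 12 fits without 1 mouse (0.52, adjusted p = 0.0564 without male 005, and 0.56, adjusted p = 0.0637 without female 024). It was lost with library totals as well (0.59, adjusted p = 0.0798).

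Aqp8 encodes a water channel of hepatocytes and of the bile canaliculus. Its GHR+/+ males had 3317, 3674 and 5384 normalized counts and its GHR+/+ females 5391, 5432 and 9148. The GHR-/- males had 1348, 2711 and 3242 and the females 1802, 1828 and 4602. GHR+/+ and GHR-/- livers overlapped through 1 GHR-/- female, and the log2 difference was 1.08 (SE 0.31, limma-voom adjusted p = 0.0239; adjusted p = 0.0507 without GHR-/- female 131). The AAV-HLP-Luc livers were the lowest, at 778 to 1459 with a median of 1096, and the AAV-HLP-mGHR livers had 2346 to 4229 with a median of 2938. The receptor and luciferase groups did not overlap, and the log2 difference of 1.36 (SE 0.23, adjusted p = 0.00846) stayed past the threshold in each fit without 1 mouse, though not in 1 fit over all 24 libraries (adjusted p = 0.0842). AAV-HLP-Luc was below GHR-/- by a log2 difference of -1.07 (95% interval -2.11 to -0.02, adjusted p = 0.952), so that the uninjected and luciferase-injected Laron livers, which differed in age as well, did not differ past the threshold.

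Aqp9, the glycerol channel, varied little. The GHR+/+ livers had 16261 to 20850 normalized counts with a median of 17837, and the GHR-/- livers 17056 to 24791 with a median of 24032. Of the 6 GHR-/- livers, 5 stood above all GHR+/+ livers, and the log2 difference of GHR+/+ against GHR-/- was -0.34 (SE 0.10, limma-voom adjusted p = 0.0292). The call was lost in 7 of 12 fits without 1 mouse, with adjusted p up to 0.0693 (0.0519 without male 101), and with the total reads behind the FPKM as library sizes (0.0609). With the receptor vector the livers had 15931 to 22614 counts and with luciferase 19836 to 27131, a log2 difference of -0.20 (95% interval -0.46 to 0.06).

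**Figure D2:**
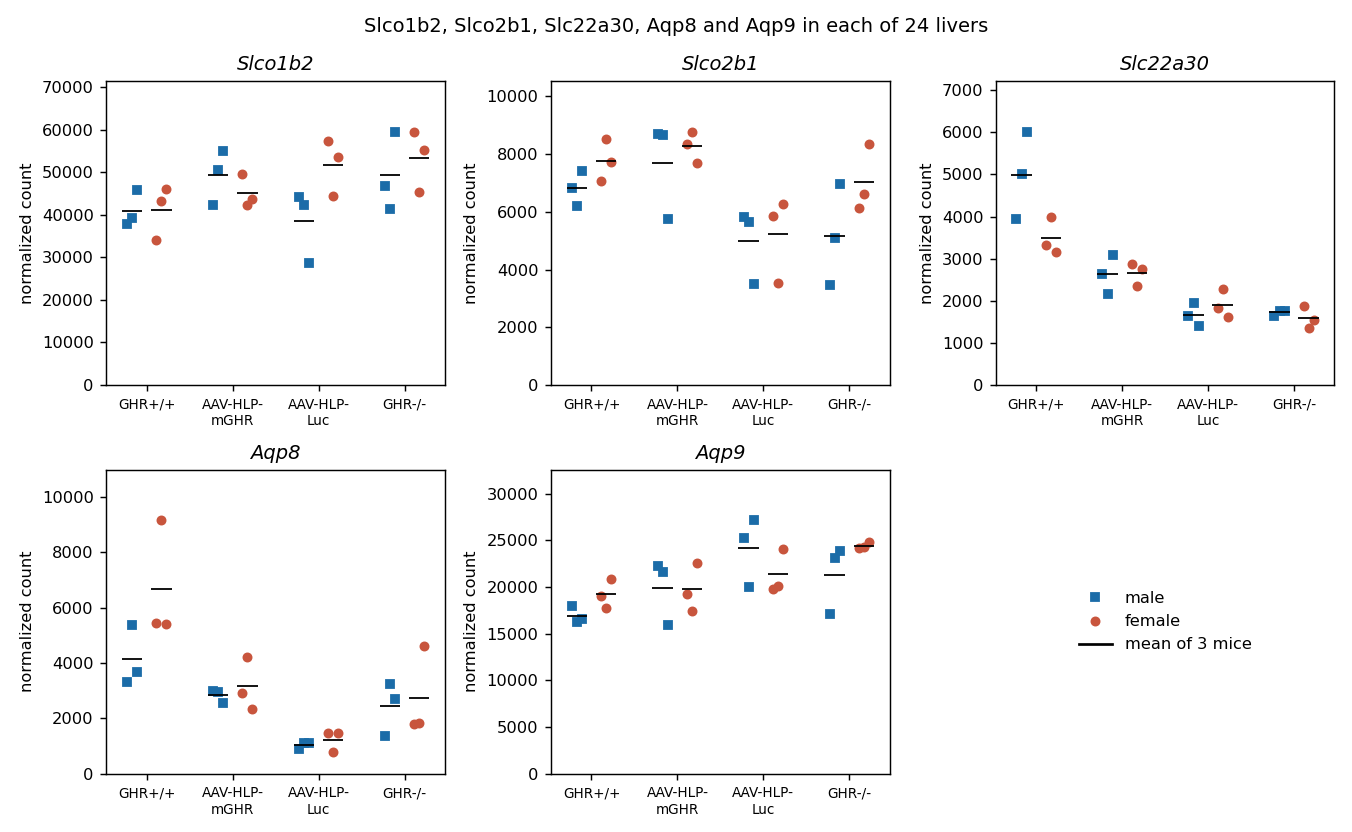
Normalized counts of Slco1b2, Slco2b1, Slc22a30, Aqp8 and Aqp9 in each of 24 livers, by group and sex (squares: males, circles: females, lines: mean of 3 mice), on linear axes from 0. Slc22a30 stepped down from wild type to AAV-HLP-mGHR to the groups without receptor, Aqp8 was lowest in AAV-HLP-Luc, and Slco1b2, Slco2b1 and Aqp9 overlapped between all groups.

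Between the receptor and the luciferase vector, 3 of the 7 genes passed, Slco1a1, Slc22a30 and Aqp8, where 1.55% of the 1999 genes did. All 3 were higher with the receptor, as were 1.3% of the 1999 genes. The groups did not overlap for 2 of the 7, against 2.35% of all genes. The median log2 difference of the 7 was 0.57, against -0.01 over all genes. The 7 genes were chosen with earlier results of these data known, so these shares and medians describe them and are no separate evidence. The Slco1a1 call rested on the AAV-HLP-Luc mice and was lost without male 001, 002 or 005 or female 016, with adjusted p up to 0.0687 (0.0504 without male 005, and 0.444 in 1 fit over all 24 libraries).

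Slco2b1, a carrier of sulfated steroids and of many drugs, came next in this comparison. Its AAV-HLP-mGHR males had 5751, 8656 and 8700 normalized counts and the females 7684, 8345 and 8780, whereas the AAV-HLP-Luc males had 3509, 5655 and 5832 and the females 3547, 5867 and 6289. Of the 6 receptor-treated livers, 5 stood above all luciferase livers. The log2 difference was 0.67 (SE 0.18, 95% interval 0.29 to 1.06, limma-voom adjusted p = 0.080), which did not pass. It passed in 1 fit over all 24 libraries (adjusted p = 0.0428). GHR+/+ livers, at 6212 to 8530, and GHR-/- livers, at 3464 to 8369, overlapped, and their log2 difference was 0.30 (95% interval -0.08 to 0.69).

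Slco1b2, the liver-specific carrier of bile acids and bilirubin, passed in none of the comparisons. It had 34024 to 46009 normalized counts in GHR+/+, 42170 to 55048 in AAV-HLP-mGHR, 28622 to 57214 in AAV-HLP-Luc and 41351 to 59494 in GHR-/- livers. All groups overlapped, and the log2 difference of GHR+/+ against GHR-/- was -0.31 (95% interval -0.57 to -0.06, limma-voom adjusted p = 0.0652). Of the 3 neighbours on chromosome 6, GHR-/- livers thus had less Slco1a1, more Slco1a4 within each sex, and no call for Slco1b2. With the sexes pooled Slco1a4 had no call either (limma-voom adjusted p = 0.0659), and it differed in the same direction as Slco1b2. An antisense RNA gene overlaps Slco1b2 and a same-strand RNA gene overlaps Slco1a1, and Slco1a1 and Slco1a4 are similar in sequence, so reads may be shared among these.

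**Figure D3:**
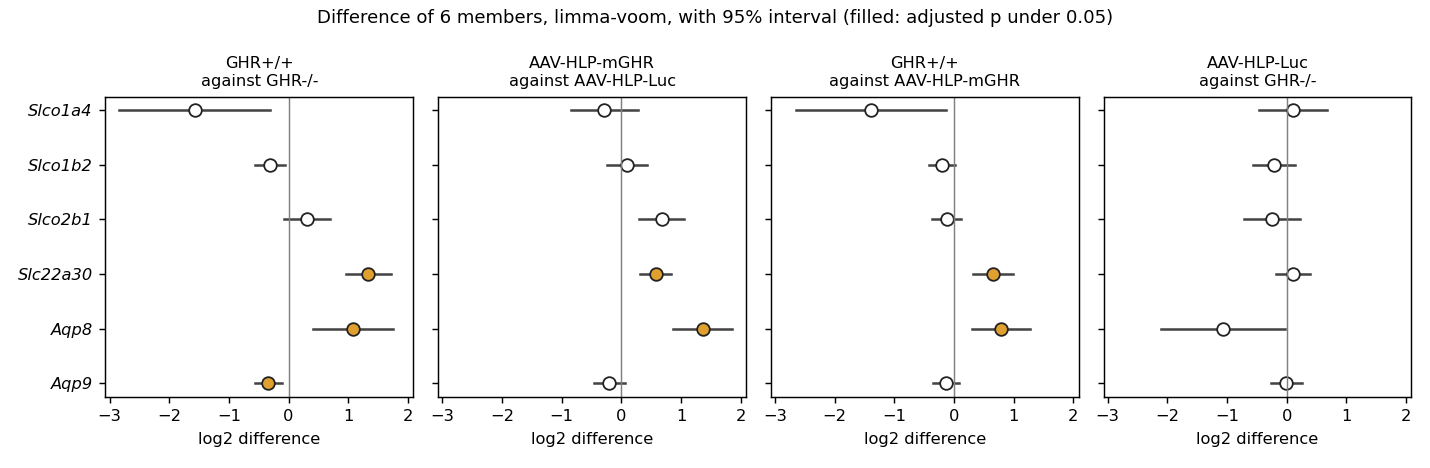
Log2 difference (limma-voom, points) of 6 genes with its 95% interval (lines) in the 4 comparisons between groups. Filled points passed an adjusted p of 0.05, and a point right of 0 is higher in the first-named group. Slc22a30 and Aqp8 are filled in 3 of the 4 panels, Aqp9 in 1, and the panel of AAV-HLP-Luc against GHR-/- has no filled point. Slco1a1 is left out because its error was unusable in both comparisons with GHR+/+ mice.

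Between the sexes of GHR+/+ mice the share of the 7 genes that passed was near that of all genes. Slco1a4, a sinusoidal carrier of bile acids and cardiac glycosides, had 749, 987 and 1285 normalized counts in GHR+/+ males and 5106, 6824 and 7633 in GHR+/+ females, a 6.48-fold higher mean in females. The log2 difference of males against females was -2.71 (SE 0.52, limma-voom adjusted p = 0.0278), and Slco1a4 was the 1 of 7 genes that passed, where 13.2% of 1999 genes did. The call was lost without male 102 (adjusted p = 0.140) or male 103 (adjusted p = 0.147). Slco1a1 pointed the other way, with a 5.88-fold higher mean in males and no overlap, but its log2 difference of 3.34 (SE 1.06, adjusted p = 0.0889) did not pass. It passed without female 121, whose 9222 counts were the highest among the females (adjusted p = 0.0222), and in 1 fit over all 24 libraries (adjusted p = 0.000692). Males and females did not overlap for Slco1a1, Slco1a4 and Aqp8, 3 of the 7 genes, as for 38.9% of all genes. Slco1a1 was among the abundant genes used through its GHR+/+ level, and GHR+/+ males gave 59358 of its 72428 GHR+/+ counts. Aqp8 was lower in males by a log2 difference of -0.68 (95% interval -1.34 to -0.03, adjusted p = 0.151). Slc22a30 differed by 0.50 (SE 0.17, adjusted p = 0.106) and passed without male 101 (adjusted p = 0.0459).

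In GHR-/- males Slco1a4 had 4971, 6879 and 7855 normalized counts, all above the GHR+/+ males, and in GHR-/- females it had 9766, 10833 and 11724, all above the GHR+/+ females. GHR+/+ against GHR-/- gave a log2 difference of -2.71 (SE 0.34, limma-voom adjusted p = 0.0027) in males and -0.74 (SE 0.16, adjusted p = 0.0475) in females. With the sexes pooled it was -1.57 (SE 0.58, adjusted p = 0.0659), and -1.25 with sex as a covariate (adjusted p = 0.00849). The male call held in each fit without 1 mouse, and the female call was lost without any 1 of the 6 mice (adjusted p up to 0.160). The male-against-female difference of GHR+/+ minus that of GHR-/- mice was -1.98 on the log2 scale (SE 0.50, limma-voom adjusted p = 0.102), which did not pass. It passed under limma-trend (adjusted p = 0.00746) and without GHR-/- male 113 (adjusted p = 0.0341) or GHR+/+ female 121 (adjusted p = 0.0268). None of the 7 genes passed this test, where 0.85% of 1999 genes did. At an unadjusted p of 0.05 Slco1a4 was the 1 member that passed it, where 13.1% of all genes did.

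Slco1a4 of AAV-HLP-mGHR males was far from the wild-type male level, but age and injection differed as well, and males alone were not tested. With the sexes pooled the log2 difference of GHR+/+ against AAV-HLP-mGHR was -1.39 (SE 0.58, limma-voom adjusted p = 0.127), which did not pass. Slco1a4 passed there in 1 fit over all 24 libraries (-1.55, adjusted p = 0.00469). Its AAV-HLP-mGHR males had 5634, 6751 and 9912 normalized counts and its females 4917, 8761 and 9800, and the sexes overlapped. The AAV-HLP-Luc males had 4460, 7658 and 10971 and the females 10762, 10993 and 11751. Between the 2 vectors the log2 difference was 0.01 in males (95% interval -0.87 to 0.88) and -0.57 in females (95% interval -1.19 to 0.04), and neither passed. The difference in sex difference between the vectors was 0.58 (95% interval -0.50 to 1.66).

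After the receptor vector Slco1a1 was nearer to the wild-type level of the same sex in females. This contrast was not tested, and age and injection differed from wild type as well. In males Slco1a1 stood at 0.571% ± 0.363 of the mean FPKM of GHR+/+ males (SD, n = 3) and in females at 6.11% ± 3.44 of GHR+/+ females. By medians these were 0.694% and 15.9%, the wild-type female mean resting largely on female 121. Each SD is that of the treated mice alone and leaves out the wild-type spread, 21.2 ± 24.96 FPKM in females. AAV-HLP-mGHR females had 2.03 times the mean of AAV-HLP-mGHR males, the reverse of wild type, but the sexes overlapped and the log2 difference of males against females was -1.17 (95% interval -3.13 to 0.79, limma-voom adjusted p = 0.526). The ratio to AAV-HLP-Luc was 29.3 in males (counting interval 16.2 to 59.2) and 100.5 in females (50.8 to 233), and the test of the difference in sex difference gave -1.80 (95% interval -5.55 to 1.95), which did not pass. None of the 7 genes passed this test, 0% of 1999 genes did, and at an unadjusted p of 0.05 none of the 7 and 6.5% of all genes did, with limma-trend calling 0 genes.

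Within the sexes, 3 of 7 genes passed between GHR+/+ and GHR-/- males, where 20.1% of 1998 genes did. They were Slco1a1 (log2 difference 12.38, SE 1.49, limma-voom adjusted p = 0.0023, and 0.0582 in 1 fit over all 24 libraries), Slco1a4, and Slc22a30 (1.52, SE 0.19, adjusted p = 0.00262). Slco1a1 had 59358 counts in GHR+/+ males and 12 in GHR-/- males. It was among the abundant genes used through its GHR+/+ level, so its call was partly set by that choice. In females 2 of 7 passed, Slco1a4 and Slc22a30 (1.14, SE 0.16, adjusted p = 0.0142, and up to 0.0585 without GHR-/- female 132 or 134), where 5.71% of 1998 genes did. For Slco1a1 the limma-voom fit in females gave no usable error (log2 difference 10.43, SE 18.8, adjusted p = 0.775), so its missing call there is no sign of a smaller difference. Its GHR+/+ females had 673 to 9222 normalized counts and its GHR-/- females 0 to 4.25. Limma-trend called Slco1a1 in females (10.02, adjusted p = 0.00559). Between the vectors none of the 7 passed in males, where 0.35% of all genes did, or in females, where 0.45% did. At an unadjusted p of 0.05 Slco1a1, Slco2b1, Slc22a30 and Aqp8, 4 of 7, passed in males and the same 4 in females, where 11.6% and 11.7% of all genes did. The smallest p in males was that of Aqp8 (1.46, SE 0.23, adjusted p = 0.101), with 2566 to 3002 normalized counts against 902 to 1097, and limma-trend called it (adjusted p = 0.00724). The smallest in females was that of Slco1a1 (6.24, SE 1.06, adjusted p = 0.0865), which limma-trend called (adjusted p = 0.0125), as did limma-voom without female 024 (adjusted p = 0.0253).

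No member passed between the sexes of Laron mice that were uninjected, given AAV-HLP-Luc or given AAV-HLP-mGHR, where 0.0501%, 0.1% and 0.05% of genes did by limma-voom. At an unadjusted p of 0.05 Slco1a4 passed in GHR-/- mice and no member in the others, where 8.11%, 14.6% and 16.3% of all genes did, and limma-trend called no member. Males and females of GHR-/- mice nevertheless did not overlap for Slco1a4 and Aqp9, 2 of 7 genes against 12.9% of all genes, and those of AAV-HLP-Luc mice did not overlap for Slco1b2, 1 of 7 against 27.3%. None of the 7 separated the sexes of AAV-HLP-mGHR mice in this way, where 23.4% of all genes did.

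Against the wild-type level, the receptor-treated livers fell short for 3 genes. Slco1a1 stood at 1.45% ± 0.961 (SD, n = 6) of the mean GHR+/+ FPKM, Aqp8 at 56.3% ± 12.7 and Slc22a30 at 64.2% ± 7.41. The AAV-HLP-Luc livers stood at 0.0256% ± 0.0124, 20.9% ± 5.45 and 42.4% ± 6.42 for the same genes, and the uninjected GHR-/- livers at 0.0226% ± 0.0199, 48.6% ± 23.8 and 40.0% ± 4.83. For Aqp8 the AAV-HLP-mGHR livers, at 2346 to 4229 normalized counts, overlapped the uninjected GHR-/- livers, at 1348 to 4602. Of the 7 genes, Slc22a30 (log2 difference 0.65, SE 0.15, limma-voom adjusted p = 0.0199) and Aqp8 (0.78, SE 0.22, adjusted p = 0.0419) were higher in GHR+/+ than in AAV-HLP-mGHR mice by the test, where 11.2% of 1999 genes passed. Slco1a1 and Slc22a30, 2 of 7 genes, did not overlap between these groups, against 6.2% of all. For Slco1a1 this was again partly set by its place among the abundant genes used, owed to its GHR+/+ level. The Slc22a30 call was lost without GHR+/+ male 102 (adjusted p = 0.0518), and the Aqp8 call in 8 of 12 fits without 1 mouse (0.0586 without female 024) and with library totals (0.0553). Age and injection differed with the receptor in this comparison.

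**Figure D4:**
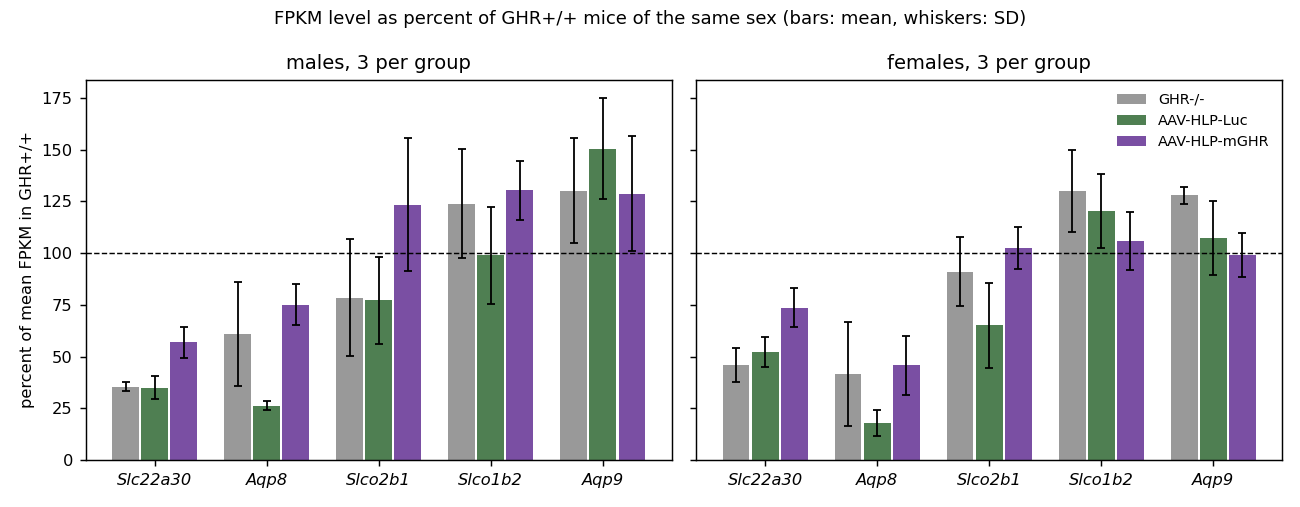
Mean FPKM of 5 genes as percent of the GHR+/+ mean of the same sex (bars, whiskers SD, 3 mice each), for uninjected Laron mice and those given either vector, with the dashed line at 100%. Slc22a30 of AAV-HLP-mGHR mice reached 56.9% in males and 73.7% in females, and Aqp8 75.1% in males and 45.7% in females.

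Between AAV-HLP-Luc and GHR-/- mice no member passed, and 0% of 1998 genes did, with limma-trend calling 0 as well. At an unadjusted p of 0.05 Aqp8 was the 1 member that passed, where 3.45% of all genes did. No member separated these groups without overlap, against 0.1% of all genes.

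Slc22a7, a transporter of organic anions, prostaglandins and cyclic nucleotides, was read from the leading edges of the 9 deposited enrichment tables, that is from the genes that carried each set's score. It stood in a leading edge in 7 of the 9 tables, and in 6 of them for sets with an adjusted p under 0.05. In GHR+/+ against GHR-/- males it stood in 17 sets with a positive normalized enrichment score and in 0 with a negative one, and in females in 0 positive and 21 negative ones. In male against female GHR+/+ mice the sets were 13 and 0. Only 2 of the 17, 5 of the 21 and 5 of the 13 sets had an adjusted p under 0.05 in the deposited enrichment analysis. By the signs of all these sets Slc22a7 ranked with the genes higher in GHR+/+ than in GHR-/- males. In females it ranked with the genes lower in GHR+/+ than in GHR-/- mice. In AAV-HLP-Luc against GHR-/- mice it stood in 19 positive sets, in AAV-HLP-mGHR against AAV-HLP-Luc males in 10 negative sets and in the females in none. With the sexes pooled it stood in 3 negative sets between the vectors, in 2 positive sets between GHR+/+ and GHR-/- mice and in none between GHR+/+ and AAV-HLP-mGHR mice. An adjusted p under 0.05 held for 4 of the 19, 1 of the 10, 1 of the 3 and 0 of the 2 sets. Sets share genes and are not independent, and no level of Slc22a7 was analysed here.

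Over the 24 libraries the members fell into different company. By Pearson correlation of log2(normalized count + 1), genes most like Slco1a1 were Mup3 (r = 0.95), a major urinary protein gene with near copies, Keg1 (0.95) and Slc22a30 (0.92), and those most like Slc22a30 were Keg1 (0.94), Slco1a1 (0.92) and Mup3 (0.92). Slco1a4 was most like the cytochrome P450 genes Cyp2b13 (0.95) and Cyp2a22 (0.94) and the hepcidin gene Hamp2 (0.94). Aqp8 was most like Ces3b (0.87), Apoc3 (0.86) and Pklr (0.84), Slco2b1 like Aldh9a1 (0.83) and the bile acid carrier Slc10a1 (0.81), Slco1b2 like Ugt2b34 (0.81), Akr1c14 (0.80) and Slc2a2 (0.79), and Aqp9 like Dcaf11 (0.83), Gulo (0.77) and Agt (0.77). Slco1a1 and Slco1a4 were opposed (r = -0.74), as were Slc22a30 and Aqp9 (r = -0.74). By Spearman correlation only 1 of the 3 nearest genes was kept for Slco1a1, Slco1a4, Slco1b2, Slc22a30 and Aqp9, and 2 for Slco2b1 and Aqp8. By that measure Slco1a1 was most like Txndc15 (0.90) and Slc22a30 most like Ghr (0.94), so most of the genes named depend on the measure. The points are 24 libraries that share group, sex and depth, so these values are descriptions.

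Other genes of hepatic transport were set beside the members. Of 32 listed carriers of the solute carrier families 11 were among the genes used, and between GHR+/+ and GHR-/- mice 1 was higher and 3 were lower by limma-voom adjusted p, where 24.6% of all genes passed. Slco2a1, a prostaglandin carrier, was higher by 1.04 (SE 0.17, adjusted p = 0.00175), and the monocarboxylate family members Slc16a7 (-1.61, SE 0.33, adjusted p = 0.0047) and Slc16a10 (95% interval -1.37 to -0.63, adjusted p = 0.00182) were lower. Slc10a1, which takes up conjugated bile acids, differed by 0.54 (95% interval 0.12 to 0.95, adjusted p = 0.0581). The median over the 11 was -0.02 against 0.01 over all genes.

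Of 16 listed exporters 9 were among the genes used, and 1 was higher and 3 were lower in GHR+/+ than in GHR-/- mice, with a median of -0.16. The share of all genes that passed here was 24.6%, and the shares of the transcription factors and glycerol genes that follow, 3 of 10 and 2 of 8, were near it. Abcc3, a basolateral exporter of conjugates, was lower by a log2 difference of -0.82 (SE 0.20, limma-voom adjusted p = 0.0105), Abcg8, part of the canalicular sterol exporter, by -0.78 (SE 0.18, adjusted p = 0.00868), and Abca1, which exports cholesterol, was higher by 0.49 (SE 0.13, adjusted p = 0.0187). Among 10 of 23 listed transcription factors of transporter genes, Onecut2 (0.76, SE 0.14, adjusted p = 0.00246) and the bile acid receptor Nr1h4 (0.40, SE 0.10, adjusted p = 0.0106) were higher and Nr5a2 (-0.31, SE 0.08, adjusted p = 0.018) was lower. Of 12 genes of glycerol handling 8 were used. None was higher and 2 were lower, among them the lipase Pnpla2 (-0.43, SE 0.13, adjusted p = 0.0352). Aqp1 was the 1 of 9 other aquaporins used, and it differed by 0.16 (95% interval -0.29 to 0.60).

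Between the vectors, 0 of these 39 genes passed by limma-voom adjusted p, where 1.55% of all genes did. At an unadjusted p of 0.05 there were 10, Slc10a1 among them, where 14.7% of all genes passed. Between GHR+/+ and AAV-HLP-mGHR mice 6 of the 39 passed by limma-voom adjusted p, where 11.2% of the 1999 genes did. Slco2a1 was higher in GHR+/+ (0.75, SE 0.11, adjusted p = 0.00304). Slc16a7 (-1.62, SE 0.34, adjusted p = 0.0109), Slc16a10 (-0.75, SE 0.16, adjusted p = 0.0131) and Slc47a1 were lower. So were Nr1i3, the xenobiotic receptor CAR (-1.32, SE 0.28, adjusted p = 0.012), and Ppara, a fatty acid receptor (-0.75, SE 0.10, adjusted p = 0.00258). No exporter, aquaporin or glycerol gene passed in that comparison. These comparisons share the GHR+/+ mice.

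Markers of liver zones were set beside the members. Of 10 pericentral markers used, 1 was higher and 3 were lower in GHR+/+ than in GHR-/- mice, where 24.6% of all genes passed, and their summed level was 396819 to 523816 normalized counts in GHR+/+ against 508702 to 707779 in GHR-/- livers. Of 16 periportal markers 3 were higher and 0 lower. Between the vectors 0 of 10 pericentral and 1 of 16 periportal markers passed, where 1.55% of all genes did. Their part in the differences of the 7 genes was not tested. Of the markers of other cells, 3 of 11 for Kupffer cells and leukocytes, 1 of 8 for endothelial cells and 1 of 8 for stellate cells were used, and none passed between GHR+/+ and GHR-/- mice or between the vectors with the sexes pooled. In females alone 2 of the 3 Kupffer cell and leukocyte markers were lower in GHR+/+ than in GHR-/- mice. Of 1998 genes 5.71% passed there, and 50 were lower. The median log2 difference over the 3 markers was -0.67. Slco1a4 and Slc22a30 passed in that comparison too, and the part of the markers in those calls was not tested. Of 5 erythrocyte markers 1 was used, and it was lower in GHR+/+ than in GHR-/- mice. Of 16 acute-phase genes 8 were higher in GHR+/+ than in GHR-/- mice, as were 237 of the 1999 genes.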

How the data were processed

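Poly(A) RNA of 24 livers was sequenced as stranded libraries by the authors, who mapped reads with Hisat2 to mm39, counted them with featureCounts 1.5.0-p3 (the submitters' processing notes), derived FPKM and compared groups with DESeq2 and a gene set enrichment analysis. Whether counting used strand is not given in the sources used here. The deposited tables hold, as the authors computed them, a normalized enrichment score, a p-value and leading-edge genes for each set, and no values per mouse. Read counts and FPKM of each gene were those of the authors' supplementary tables, which in hand hold the first 1999 and 1301 of 56748 genes, all abundant (lowest mean count 1123). All per-sample columns were used.

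Each library's counts were divided by its size factor (median of ratios), and limma-voom (limma 3.58.1, R 4.3.3) was fitted to the libraries of each comparison. Benjamini-Hochberg adjustment, at 0.05, was over the genes in hand that entered the fit, at most 1999. Shares of all genes are shares of these abundant genes, not of all 56748. The fit was tested on simulated counts of abundant genes. None of these fell to a few reads in a group, so the test does not cover a gene like Slco1a1. Positions and symbols came from GENCODE M39 and promoters from RefSeq. FPKM of 2 members were computed from counts, exon length and the reads behind the authors' FPKM. Figures were drawn with matplotlib 3.10.9, exact tests run with scipy 1.17.1, and tables handled with pandas 2.3.3 and numpy 2.4.6, all under Python 3.11.15.

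Named genes were the 8 members, the 3 genes most like each, and up to 3 called genes per list and comparison with the largest difference. Of the genes this rule names, 2 are not reported here. Members and lists were chosen with earlier results of these data known. Alternatives were other library sizes, limma-trend, at least 10 counts in every library, 1 fit over all libraries, a sex covariate, each mouse left out, medians, normalized counts, Spearman correlation, and sets with an adjusted p under 0.05. The exact permutation test was added after seeing the data.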

Additional observations from a re-analysis of the deposited data

Results flagged for a closer look

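The lowest or highest of the 6 mice of a group was set against the other 5 for each of 7 genes in 4 groups, 28 in all, by the gap to its neighbour over the range of the group on a log2 scale, against Dixon's 95% critical value. Chance gives such a gap in about 5% of groups. Slco2b1 of AAV-HLP-mGHR male 012 had 5751 normalized counts, where the other 5 mice had 7684 to 8780. Aqp9 of GHR-/- male 113 had 17056 normalized counts, where the other 5 mice had 23070 to 24791.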

How the results depend on the processing

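No paired analysis was possible because each mouse has its own animal number and the groups share none. Of the log2 differences of the 7 genes under other settings, 361 kept direction and side of the threshold, 17 came to pass and 8 ceased to pass. Among the 17 are the exact permutation tests of Slco1a1 in GHR+/+ against GHR-/- and against AAV-HLP-mGHR mice, which are no separate evidence. Only Slco1a1 and Slco1a4 were counted for the differences in sex difference and for the sexes of groups other than GHR+/+. With 1 mouse left out 562 kept both, 10 came to pass, 40 ceased to pass and 18 turned direction. The number of the 7 genes called between GHR+/+ and GHR-/- mice was 3, against 5 under limma-trend, 5 in 1 fit over all 24 libraries, 4 with a sex covariate and 2 with the total reads behind the FPKM. Between the vectors it was 3, against 2 with library totals, 2 with at least 10 counts in every library and 2 in 1 fit. Between GHR+/+ and AAV-HLP-mGHR it was 2, against 1 with library totals, 1 with the total reads behind the FPKM and 4 in 1 fit. Between GHR+/+ sexes it was 1, against 2 in 1 fit. Limma-trend called 1 in place of 0 between the vectors in males, 1 in females, and 1 for the sex difference of GHR+/+ minus that of GHR-/-. Why these counts moved was not tested.

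Without 1 mouse the number called ran from 1 to 4 between GHR+/+ and GHR-/-, 1 to 3 between the vectors, 0 to 2 between GHR+/+ and AAV-HLP-mGHR, 0 to 2 between GHR+/+ sexes, 3 to 4 in males and 0 to 1 in females of GHR+/+ against GHR-/-, 0 to 1 between the vectors in females, and 0 to 1 for the first sex difference. Directions turned for values near 0 that were never called: Slco1b2 between the vectors (-0.028 to 0.17), Slco1a4 (-0.041 to 0.31) and Aqp9 (-0.090 to 0.029) between AAV-HLP-Luc and GHR-/-, Slco1b2 between GHR+/+ sexes (-0.13 to 0.085), and Slco1a4 between AAV-HLP-mGHR sexes (-0.36 to 0.14) and between the vectors in males (-0.34 to 0.30).

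Over all genes, 31 were called between the vectors against 76 in 1 fit and 49 with a sex covariate, and 223 between GHR+/+ and AAV-HLP-mGHR against 145 with total reads, 339 in 1 fit and 356 with a sex covariate. In GHR+/+ sexes 147 were higher and 117 lower in males, against 94 and 182 with library totals and 63 and 195 with total reads, which moved the median of all genes to -0.13. In GHR+/+ against GHR-/- males 214 were higher and 187 lower, against 165 and 241 with library totals. Between the vectors 7 were called in males against 13 under limma-trend and 44 in 1 fit, and 9 in females against 14 in 1 fit and 6 with at least 10 counts in every library. For GHR+/+ against GHR-/- females 114 were called against 72 in 1 fit, for the first sex difference 17 against 47 under limma-trend, and between AAV-HLP-Luc sexes 2 against 39 in 1 fit. The minimum of 10 counts leaves out Slco1a1 wherever a group without receptor enters. Depth limits Slco1a1 in those groups, where 0 to 7 reads stood behind each value.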
